A study of Mus musculus with 26 samples.

Results

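Gene expression of Rag-deficient T cell acute lymphoblastic leukaemia (T-ALL) of the mouse was compared with that of Rag-proficient T-ALL on Illumina bead arrays. The arrays were taken by the phenotype in their labels, which placed 3 of 10 T-ALL arrays in the Rag-deficient group and 7 in the Rag-proficient group, out of 26 arrays in the series. The other 16 arrays held normal thymocytes at 7 stages and served only to describe where the changed transcripts are found in normal development. Rag-deficient T-ALL had the strain background C57BL/6, and Rag-proficient T-ALL the background F1(WB x B6/Ly5.1), so strain and Rag status cannot be told apart in any difference below. The labels give no age, sex, agent or organ for these arrays, nor which Rag gene was lost or how. RNA came from animals, from cell suspensions of which some were sorted, without a statement for each array. Whether each array of a group is a different animal is not stated, and the p-values therefore cover the spread among these arrays alone, which may be technical. All 3 Rag-deficient arrays lay on slide 3 beside Rag-proficient replicate 7, while replicates 1 to 3 lay on slide 1 and replicates 4 to 6 on slide 2.

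Rag1 and Rag2 together form the recombinase that cuts DNA at the variable, diversity and joining segments of the antigen receptor genes, so that T cell receptor and immunoglobulin chains can be assembled. Without it, normal thymocytes stop before they make a receptor beta chain, and normal B cells stop before they make a heavy chain. Transcription of unrearranged receptor segments and constant regions does not need the recombinase, and arrays read such transcripts as well as the rearranged ones. T-ALL arises from immature T cells, and Notch1 signalling often drives it.

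Levels are normalized log2 intensities, in which 1 unit is a 2-fold difference, and differences are Rag-deficient minus Rag-proficient. A probe counted as detected on an array where its detection p, made one-sided, lay below 0.01. Detected probes made up 43.9% ± 0.39 of all probes in Rag-deficient arrays and 44.3% ± 1.28 in Rag-proficient arrays (SD, n = 3 and 7; 2-sided exact permutation test over 120 splits, p = 0.625, smallest possible 0.00833). Pairs of Rag-deficient arrays correlated at 0.942 to 0.953 across kept probes, pairs of Rag-proficient arrays at 0.93 to 0.966, and pairs of 1 array from each group at 0.914 to 0.963. Depth in reads does not apply to arrays, and the number of arrays limits the precision.

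The labels were first set against the Rag genes themselves. Rag1 read 9.38, 9.88 and 10.20 in the Rag-deficient arrays, and 9.58 at the lowest, 10.44 at the median and 12.14 at the highest in the Rag-proficient arrays. It was detected on all 10 arrays, and the groups overlapped (log2 difference -0.64 ± 0.46 SE, limma adjusted p = 0.689). Rag2 read 4.30, 7.07 and 6.21 in the Rag-deficient arrays and from 4.29 through a median of 6.79 to 7.77 in the Rag-proficient arrays, and was detected on 2 of 3 and 5 of 7 arrays (log2 difference -0.29 ± 0.82 SE, limma adjusted p = 0.943). Since the deleted gene and the deleted part are not stated and probe positions were not used here, these probes check nothing about the labels. Other genes of the joining reaction had no call. Of 8 genes kept from a list of 12 recombination genes, 0 passed the test, with a median log2 difference of -0.18. Xrcc6, a subunit of the end-joining protein Ku, was the only one without overlap, at 14.53, 14.51 and 14.53 in Rag-deficient arrays and from 14.55 through 14.80 to 14.94 in Rag-proficient arrays (log2 difference -0.25 ± 0.16 SE, limma adjusted p = 0.648). Among the others Dntt, the terminal transferase that adds bases at joints, read 9.95, 9.45 and 9.91 in Rag-deficient arrays and 7.94, 9.21 and 10.66 (lowest, median, highest) in Rag-proficient arrays.

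Of 22951 probes detected on at least 3 of the 10 arrays, 95 (0.414%) passed limma at an adjusted p under 0.05. Of these, 79 (0.344%) were lower and 16 (0.0697%) higher in Rag-deficient T-ALL. All 95 differed by at least 2-fold and had no overlap between the groups. Of all probes tested, 1.83% lay lower without overlap and 2% higher without overlap. The lower probes stood for 62 named genes and the higher ones for 10. In fitted values, the lower calls ran from -8.32 to -1.21 on the log2 scale with a median of -2.42. The higher calls ran from 1.00 to 9.66 with a median of 2.27, beside a median of 0.037 over all probes tested. For probes undetected in a whole group the fitted fold is no minimum. It was 320-fold for ILMN_2704562 and 808-fold for ILMN_2483650, where the bounds used below are 239-fold and 679-fold. Each bound compares group means and not single arrays, of which some lie closer to the other group. The balance of directions moved with the background correction and with the values used. Without background correction 25 probes were called, 9 higher and 16 lower, and in the authors' deposited log2 values 23 were called, 10 higher and 13 lower.

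Some calls lay between detected and undetected. Of the 79 lower probes, 24 were detected on all 7 Rag-proficient arrays and on 0 of 3 Rag-deficient arrays, a pattern that 58 of the 22951 kept probes had. Of the 16 higher probes, 4 were detected on all 3 Rag-deficient arrays and on 0 of 7 Rag-proficient arrays, a pattern that 22 kept probes had. In bulk RNA of this kind, fewer cells of a type and less RNA per cell cannot be told apart.

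**Figure D1:**
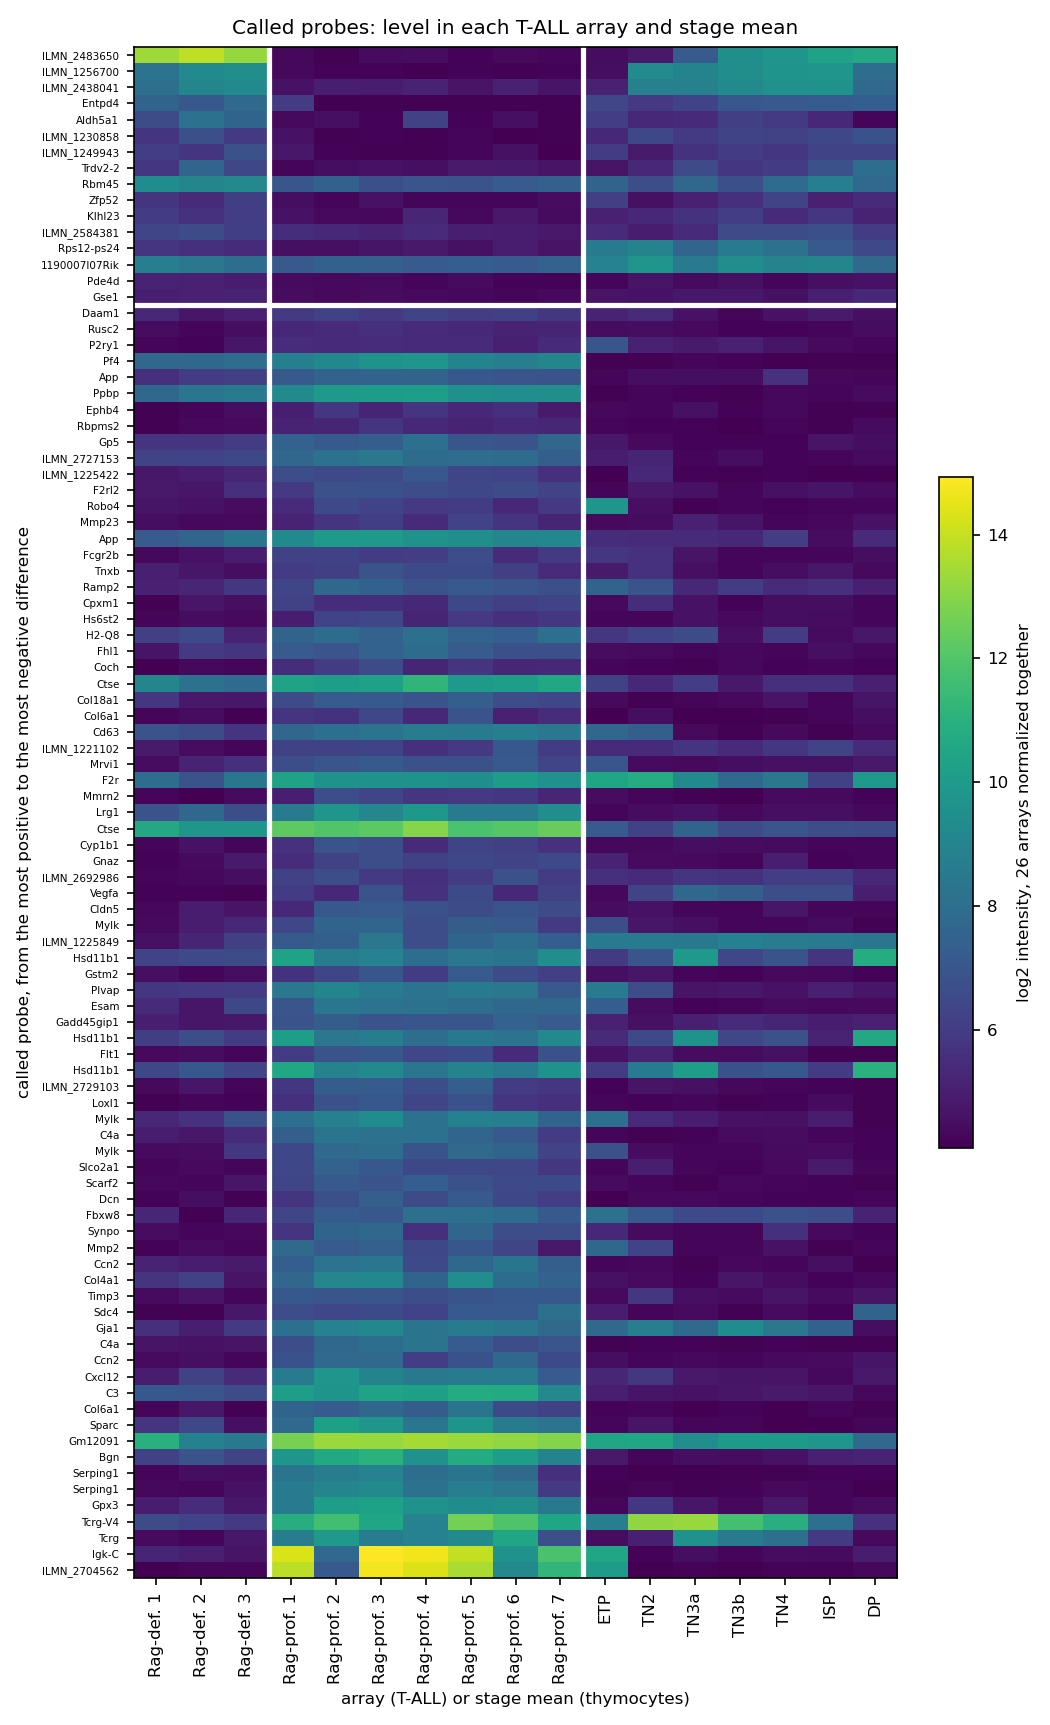
Level of the 95 called probes (rows, ordered by log2 difference) in the 3 Rag-deficient arrays, the 7 Rag-proficient arrays and the mean of each of 7 thymocyte stages (columns). Colour is log2 intensity after the 26 arrays were normalized together, and unnamed probes are given by their ID. The 16 probes above the horizontal line are higher in the 3 left columns and the 79 below it are lower there.

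Among antigen receptor genes, the immunoglobulin kappa constant region and transcripts of the T cell receptor gamma locus were lower in Rag-deficient T-ALL, and 1 delta variable segment was higher. The receptor probes were picked by gene symbol after the results were known, and the counts by locus are a description. The array held 61 of them with a receptor name, of which 37 passed the detection filter. Across the 7 loci, 3 of these were called lower and 1 higher, where 0.344% and 0.0697% of all probes tested were.

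The probe for Igk-C, the constant region of the kappa light chain, read 5.69, 5.47 and 4.93 in the Rag-deficient arrays. In the Rag-proficient arrays it ran from 8.49 through a median of 14.45 to 15.29. All Rag-deficient arrays lay below the lowest Rag-proficient array, and the Rag-proficient arrays differed widely among themselves (log2 difference -7.62 ± 1.33 SE, limma adjusted p = 0.0282). The unnamed probe ILMN_2704562 put the 7 Rag-proficient arrays in the same order as Igk-C did, from 7.79 through 14.11 to 15.13. It was detected on 0 of 3 Rag-deficient arrays, where it read 4.12, 4.34 and 4.30, and its group mean was at least 239-fold lower there (limma adjusted p = 0.0242). Rag-proficient replicates 2 and 6, at 7.79 and 9.92, lay closer to the Rag-deficient arrays than the Rag-proficient mean of 12.58 did. Both calls were lost without any 1 of the 3 Rag-deficient arrays and without Rag-proficient replicate 5, and that of Igk-C also without Rag-proficient replicate 3 or 4. Over all arrays left out in turn, the adjusted p reached 0.147 for Igk-C, with log2 differences between -8.36 and -7.23, and 0.14 for ILMN_2704562.

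Some variable segments of the light chains were detected on some Rag-proficient arrays and not on others, and some were detected on all 10 arrays. Of 18 such probes, 4, 6 and 6 were detected on the Rag-deficient arrays, against 5 at the lowest, 13 at the median and 18 at the highest on the Rag-proficient arrays. The probe ILMN_1245146 for Igl-V1, a lambda variable segment, read 4.12, 4.14 and 4.11 in Rag-deficient arrays, with 0 detected, and 4.19, 12.20 and 14.91 (lowest, median, highest) in Rag-proficient arrays. Rag-proficient replicates 1, 3, 4 and 5 were high and replicates 2, 6 and 7 were low, and the difference did not pass (limma adjusted p = 0.454). The same 4 replicates were high for the kappa variable segment Igkv4-62, which read 4.26, 4.25 and 4.57 in Rag-deficient arrays and 4.31, 7.64 and 10.44 (lowest, median, highest) in Rag-proficient arrays. It was detected on 0 of 3 and 4 of 7 arrays, and its difference had a limma adjusted p of 0.542. Of the 17 kappa probes on the array, 8 were detected on at least 1 Rag-deficient array and 17 on at least 1 Rag-proficient array, with 3 and 7 arrays in the groups.

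The heavy chain had no call. Igh-6, the constant region of the mu heavy chain, was detected on all 10 arrays and read 12.46, 12.38 and 12.58 in Rag-deficient arrays against 12.16, 13.04 and 14.97 (lowest, median, highest) in Rag-proficient arrays (log2 difference -0.86 ± 0.54 SE, limma adjusted p = 0.636). The heavy chain variable probe ILMN_2621519 for Ighv1-62-3 was detected on 0 of 3 Rag-deficient and 4 of 7 Rag-proficient arrays. It read 4.37, 4.29 and 4.38 there and from 4.10 through 5.76 to 10.64 in Rag-proficient arrays, and did not pass (limma adjusted p = 0.62). Of 5 B cell marker genes kept from a list of 9, 0 were called, with a median log2 difference of 0.16. Their summed intensity was 331 to 400.03 in Rag-deficient arrays and 222 to 436 in Rag-proficient arrays, while Cd79a and Igll1 were matched to no probe here. Their part in the Igk-C difference was not tested.

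At the T cell receptor gamma locus, the probe ILMN_1215281 for Tcrg read 4.57, 4.31 and 5.15 in Rag-deficient arrays, where it was detected on 1 of 3. It ran from 7.40 through a median of 9.60 to 11.13 in Rag-proficient arrays and was detected on all 7 (log2 difference -4.95 ± 0.62 SE, limma adjusted p = 0.00432). The variable segment Tcrg-V4 read 7.21, 6.91 and 6.52 in Rag-deficient arrays and 9.60, 11.52 and 13.28 (lowest, median, highest) in Rag-proficient arrays (log2 difference -4.78 ± 0.62 SE, limma adjusted p = 0.00549). Neither probe overlapped between the groups, and each call held without any 1 array, with adjusted p-values of at most 0.0455. Tcrg-V7, of the same locus, had no call. It read 6.30, 6.16 and 5.65 in Rag-deficient arrays and 5.32, 5.96 and 6.41 in Rag-proficient arrays (log2 difference 0.06, limma adjusted p = 0.966), and Tcrg-V5 and Tcrg-V6 were detected on none of the 10 arrays. Gamma segments are members of near-identical families, and a probe may read more than 1 of them.

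The delta variable segment Trdv2-2 was higher, at 6.41, 8.33 and 7.03 in Rag-deficient arrays and from 4.33 through 4.91 to 5.25 in Rag-proficient arrays. It was detected on all 3 Rag-deficient and on 4 of 7 Rag-proficient arrays, without overlap (log2 difference 2.38 ± 0.35 SE, limma adjusted p = 0.0128), and its call held without any 1 array. Alpha and beta segments showed no call among 11 kept probes. The probe ILMN_2431390 for the beta segment Tcrb-V8.2 read 14.87, 14.90 and 14.91 in Rag-deficient arrays and 14.13, 14.79 and 15.07 (lowest, median, highest) in Rag-proficient arrays, a log2 difference of 0.15 ± 0.21 SE (limma adjusted p = 0.854). A different probe for the same segment, ILMN_2516221, disagreed with it. It read 4.81, 4.51 and 8.24 in Rag-deficient arrays and from 6.04 through 9.56 to 14.86 in Rag-proficient arrays, with a log2 difference of -4.14 ± 1.47 SE that did not pass (limma adjusted p = 0.384). The alpha segment Trav9n-4 read 13.35, 12.55 and 12.76 in Rag-deficient arrays and 11.66, 12.33 and 12.87 in Rag-proficient arrays (limma adjusted p = 0.55).

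**Figure D2:**
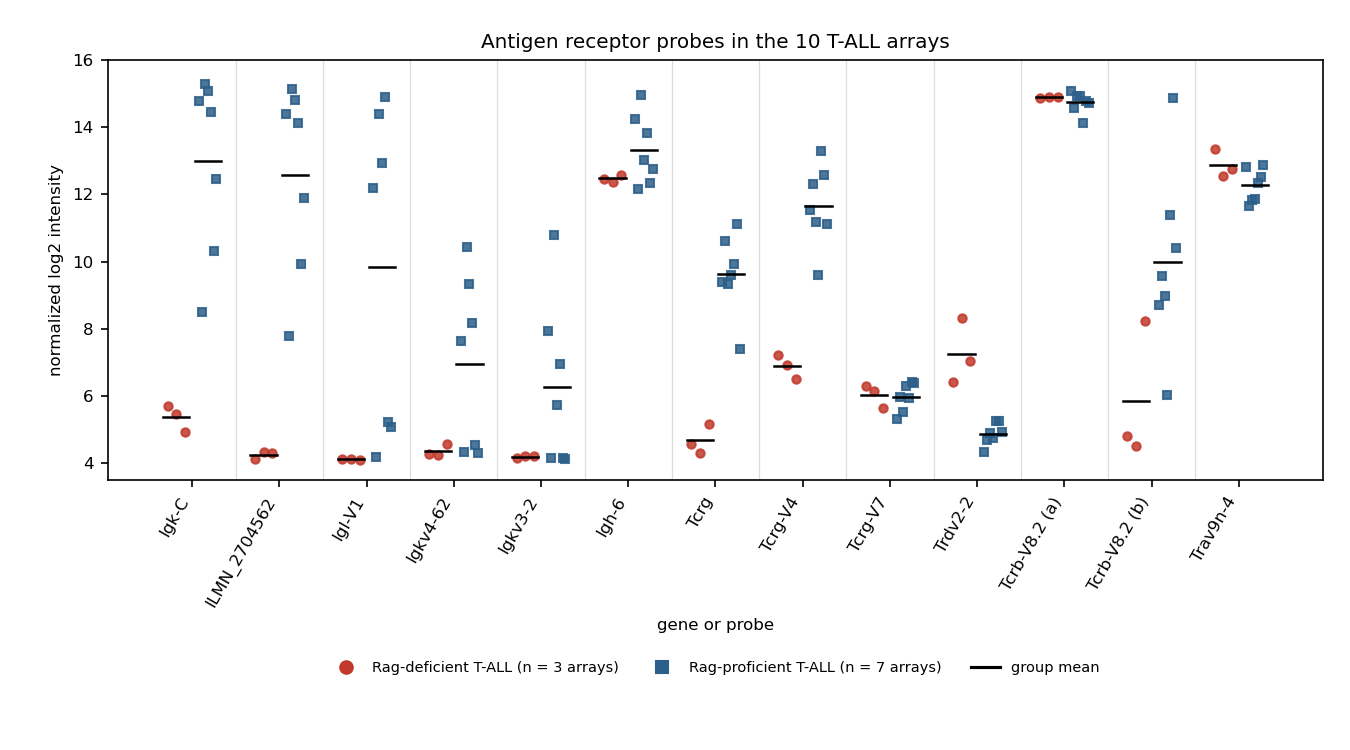
Normalized log2 intensity (vertical axis) of 12 antigen receptor probes and the unnamed probe ILMN_2704562 in each Rag-deficient (circles, n = 3) and Rag-proficient (squares, n = 7) array, with bars at the group means. Tcrb-V8.2 (a) is ILMN_2431390 and (b) is ILMN_2516221. Igk-C, ILMN_2704562, Tcrg, Tcrg-V4 and Trdv2-2 do not overlap between the groups. The light chain variable segments shown split the Rag-proficient arrays among themselves.

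Outside the receptor loci, the named genes that were lower in Rag-deficient T-ALL are given by what they encode, an order made after their values were seen and not tested. Gpx3, a secreted glutathione peroxidase, read 5.38, 6.03 and 5.14 in Rag-deficient arrays and 9.17, 10.18 and 10.97 (lowest, median, highest) in Rag-proficient arrays. Its log2 difference was -4.61 ± 0.40 SE (limma adjusted p = 0.000339). Complement genes were among them. C3, the central complement component, read 7.75, 7.62 and 7.25 in Rag-deficient arrays against 9.92, 10.92 and 11.43 in Rag-proficient arrays (log2 difference -3.31 ± 0.31 SE, limma adjusted p = 0.000641). Serping1, the inhibitor of the first complement component, was detected on 0 of 3 Rag-deficient arrays, at 4.42, 4.29 and 4.88. It read 6.52, 9.28 and 9.93 in Rag-proficient arrays, with 7 of 7 detected. Its group mean was at least 18.7-fold lower in Rag-deficient arrays (limma adjusted p = 0.00626). Its lowest Rag-proficient value was that of replicate 7. C4a, for which the near-identical copy C4b makes the assignment uncertain, fell in both kept probes, with log2 differences of -3.12 and -2.73 (limma adjusted p = 0.00319 and 0.0211). The calls of Gpx3 and C3 held without any 1 array, with adjusted p-values of at most 0.00647 and 0.0084, whereas the Serping1 call was lost without Rag-deficient replicate 2 (adjusted p = 0.0552). The weaker C4a call, of ILMN_1215092, was lost without Rag-deficient replicate 1 or 2 or Rag-proficient replicate 5 (adjusted p up to 0.147).

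Some genes of the extracellular matrix were also lower. Biglycan (Bgn), a matrix proteoglycan, read 6.81, 7.55 and 6.95 in Rag-deficient arrays and 9.70, 10.83 and 11.71 (lowest, median, highest) in Rag-proficient arrays (log2 difference -3.72 ± 0.40 SE, limma adjusted p = 0.00169). Sparc, a collagen-binding matrix glycoprotein, read 6.33, 7.08 and 4.78 in Rag-deficient arrays against 8.49, 9.27 and 10.96 in Rag-proficient arrays (log2 difference -3.58 ± 0.59 SE, limma adjusted p = 0.0208). Col6a1, a chain of collagen VI, was detected on 1 of 3 Rag-deficient arrays, at 4.27, 5.13 and 4.20, and on 7 of 7 Rag-proficient arrays, at 6.85, 7.99 and 8.99. Its log2 difference was -3.42 ± 0.42 SE (limma adjusted p = 0.00407). Timp3, an inhibitor of metalloproteinases, had a spread of only 0.14 (SD) among the 7 Rag-proficient arrays, which read 7.37 at the lowest and 7.77 at the highest. It was detected on 0 of 3 Rag-deficient arrays, at 4.52, 4.98 and 4.31, and was at least 7.36-fold lower (limma adjusted p = 1.77e-05). Dcn, the proteoglycan decorin, was likewise undetected in all Rag-deficient arrays and at least 5.85-fold lower (limma adjusted p = 0.00401), and Ccn2, a connective tissue growth factor, at least 8.22-fold lower in the probe ILMN_1238215 (limma adjusted p = 0.0043). The calls of Bgn, Col6a1, Timp3, Dcn and Ccn2 held without any 1 array, while that of Sparc was lost without Rag-deficient replicate 1 or 3 or Rag-proficient replicate 5 (adjusted p up to 0.115). Other kept probes were not called for Sparc (log2 differences -2.22 and -0.25, limma adjusted p = 0.163 and 0.806), Dcn (limma adjusted p = 0.593) and Timp3 (log2 difference 0.54, limma adjusted p = 0.586). The second Ccn2 probe was called at -2.98. Col1a1 and Col1a2, the chains of collagen I, were not called. Col1a1 did not overlap between the groups (log2 difference -2.10 ± 0.65 SE, limma adjusted p = 0.307). Col1a2 overlapped, at 6.47, 4.41 and 6.04 in Rag-deficient arrays and from 5.15 through 5.86 to 6.34 in Rag-proficient arrays. Its log2 difference was -0.20 ± 0.39 SE (limma adjusted p = 0.911).

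Further genes that were lower act at the cell surface or in signalling. Cxcl12, a chemokine and the ligand of Cxcr4, read 5.30, 6.81 and 5.94 in Rag-deficient arrays and 7.95, 9.29 and 10.43 (lowest, median, highest) in Rag-proficient arrays (log2 difference -3.29 ± 0.45 SE, limma adjusted p = 0.00659), and its call was lost without Rag-deficient replicate 1 (adjusted p = 0.0537). Both other kept Cxcl12 probes were not called (limma adjusted p = 0.45 and 0.347), and in both Rag-proficient replicate 7, at 4.27, lay among the Rag-deficient arrays, which read 4.29, 4.21 and 4.56 with the probe ILMN_3158250 and 4.17, 4.49 and 4.30 with ILMN_2737302. Cxcr4, the receptor of Cxcl12, read 11.33, 11.39 and 11.09 in Rag-deficient arrays and 9.55, 9.88 and 10.63 in Rag-proficient arrays. The groups did not overlap there, and the log2 difference of 1.18 ± 0.25 SE did not pass (limma adjusted p = 0.0981). Gja1, the gap junction protein connexin 43, read 6.11, 5.43 and 6.55 in Rag-deficient arrays and 8.53, 9.06 and 9.87 in Rag-proficient arrays (log2 difference -3.12 ± 0.32 SE, limma adjusted p = 0.00119). Sdc4, the heparan sulphate proteoglycan syndecan 4, was detected on 1 of 3 Rag-deficient and on 7 of 7 Rag-proficient arrays, with a log2 difference of -3.06 ± 0.39 SE (limma adjusted p = 0.00521), and lost its call without Rag-deficient replicate 2 (adjusted p = 0.0509). Gm12091 read 11.67, 9.56 and 9.20 in Rag-deficient arrays and 13.34, 13.85 and 14.06 in Rag-proficient arrays (log2 difference -3.63 ± 0.43 SE, limma adjusted p = 0.00331), with Rag-deficient replicate 1 set apart from the other two. The unnamed probe ILMN_2729103 read 4.46, 5.06 and 4.27 in Rag-deficient arrays and 6.41, 7.33 and 8.08 in Rag-proficient arrays. Its call (log2 difference -2.66 ± 0.42 SE, limma adjusted p = 0.0184) was lost without any 1 of the Rag-deficient arrays, with an adjusted p of up to 0.123.

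Platelet and endothelial genes were also among the lower calls, and these were named after their values were seen. The platelet chemokine Pf4 read 8.35, 8.46 and 8.65 in Rag-deficient arrays and from 9.42 through 9.76 to 10.45 in Rag-proficient arrays. The platelet chemokine Ppbp read 8.46, 9.05 and 9.32 in Rag-deficient arrays and from 9.94 through 10.23 to 10.81 in Rag-proficient arrays. Both were detected on all 10 arrays and differed by -1.37 and -1.43 on the log2 scale (limma adjusted p = 0.0379 each). The second kept Ppbp probe, ILMN_1228102, was not called (log2 difference -1.28, limma adjusted p = 0.186), and its groups overlapped, with 9.20 in Rag-deficient replicate 2 and 9.17 in Rag-proficient replicate 7. Flt1, a receptor for vascular endothelial growth factors, was detected on 0 of 3 Rag-deficient and on 7 of 7 Rag-proficient arrays (at least 5.23-fold lower, limma adjusted p = 0.00597). The call of Flt1 held without any 1 array. Those of Pf4 and Ppbp were both lost without Rag-deficient replicate 1 or 2 or Rag-proficient replicate 2, 3 or 5. The Pf4 call was also lost without Rag-deficient replicate 3 or Rag-proficient replicate 7, and the Ppbp call without Rag-proficient replicate 4 or 6 (adjusted p up to 0.222 and 0.231). The list of markers of stroma, endothelium and epithelium had 6 of 10 genes kept and 0 called. Its median log2 difference was -0.24, and its summed intensity was 731 to 902 in Rag-deficient arrays and 765 to 1304 in Rag-proficient arrays. Col3a1, Foxn1 and Epcam were undetected on all 10 arrays. Cdh5, the endothelial cadherin, read 4.64, 4.44 and 5.44 in Rag-deficient arrays and from 5.56 through 6.12 to 6.74 in Rag-proficient arrays without overlap (log2 difference -1.26, limma adjusted p = 0.161), while Pecam1 overlapped (log2 difference -0.29, limma adjusted p = 0.774). The part of such cells in the lower calls was not tested.

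Few named genes were higher in Rag-deficient T-ALL. Rbm45, an RNA-binding protein, read 10.09, 9.79 and 9.91 in Rag-deficient arrays and 7.41, 7.68 and 8.13 (lowest, median, highest) in Rag-proficient arrays (log2 difference 2.16 ± 0.21 SE, limma adjusted p = 0.000641). Aldh5a1, the succinic semialdehyde dehydrogenase of the breakdown of the transmitter GABA, read 7.28, 8.86 and 8.27 in Rag-deficient arrays and from 4.19 through 4.48 to 6.79 in Rag-proficient arrays, where 1 of 7 detected it (log2 difference 3.36 ± 0.53 SE, limma adjusted p = 0.0177). The highest of these was Rag-proficient replicate 4. The zinc finger gene Zfp52 read 6.34, 5.97 and 6.74 in Rag-deficient arrays and 4.26, 4.38 and 4.90 in Rag-proficient arrays (log2 difference 1.85 ± 0.22 SE, limma adjusted p = 0.00331). All 3 were without overlap. Klhl23, a kelch-like protein, read 6.60, 6.27 and 6.68 in Rag-deficient arrays and 4.40, 4.58 and 5.76 in Rag-proficient arrays (log2 difference 1.70 ± 0.29 SE, limma adjusted p = 0.0276). The gene 1190007I07Rik read 9.46, 9.10 and 8.72 in Rag-deficient arrays and 7.81, 8.03 and 8.18 in Rag-proficient arrays (log2 difference 1.09 ± 0.19 SE, limma adjusted p = 0.0334). The calls of Rbm45 and Zfp52 held without any 1 array. That of Aldh5a1 was lost without Rag-deficient replicate 2 or 3 (adjusted p up to 0.124), and the other 3 kept probes of Aldh5a1 differed by 0.19 to 1.35 on the log2 scale without a call. Klhl23 lost its call without any 1 Rag-deficient array and without Rag-proficient replicate 2, 3 or 5 (adjusted p up to 0.161). 1190007I07Rik lost it without Rag-deficient replicate 1 or 2 and without any 1 of Rag-proficient replicates 1 to 6 (adjusted p up to 0.22). Median scaling also ended the 1190007I07Rik call (adjusted p = 0.146).

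The 2 unnamed probes with the largest rises had the smallest p-values of all. ILMN_2483650 read 13.97, 14.43 and 13.82 in Rag-deficient arrays and was detected on 0 of 7 Rag-proficient arrays, where it read 4.20, 4.44 and 4.59 (lowest, median, highest). It was at least 679-fold higher in Rag-deficient T-ALL (limma adjusted p = 8.05e-11). ILMN_1256700 read 8.94, 10.00 and 10.16 in Rag-deficient arrays and 4.14, 4.22 and 4.42 in Rag-proficient arrays, with 0 of 7 detected, and was at least 32.8-fold higher (limma adjusted p = 6.2e-07). Both were called in each of the 7 fits that left out a Rag-proficient array. Without any 1 Rag-deficient array they were detected on only 2 arrays and fell under the filter, so those fits gave no value.

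**Figure D3:**
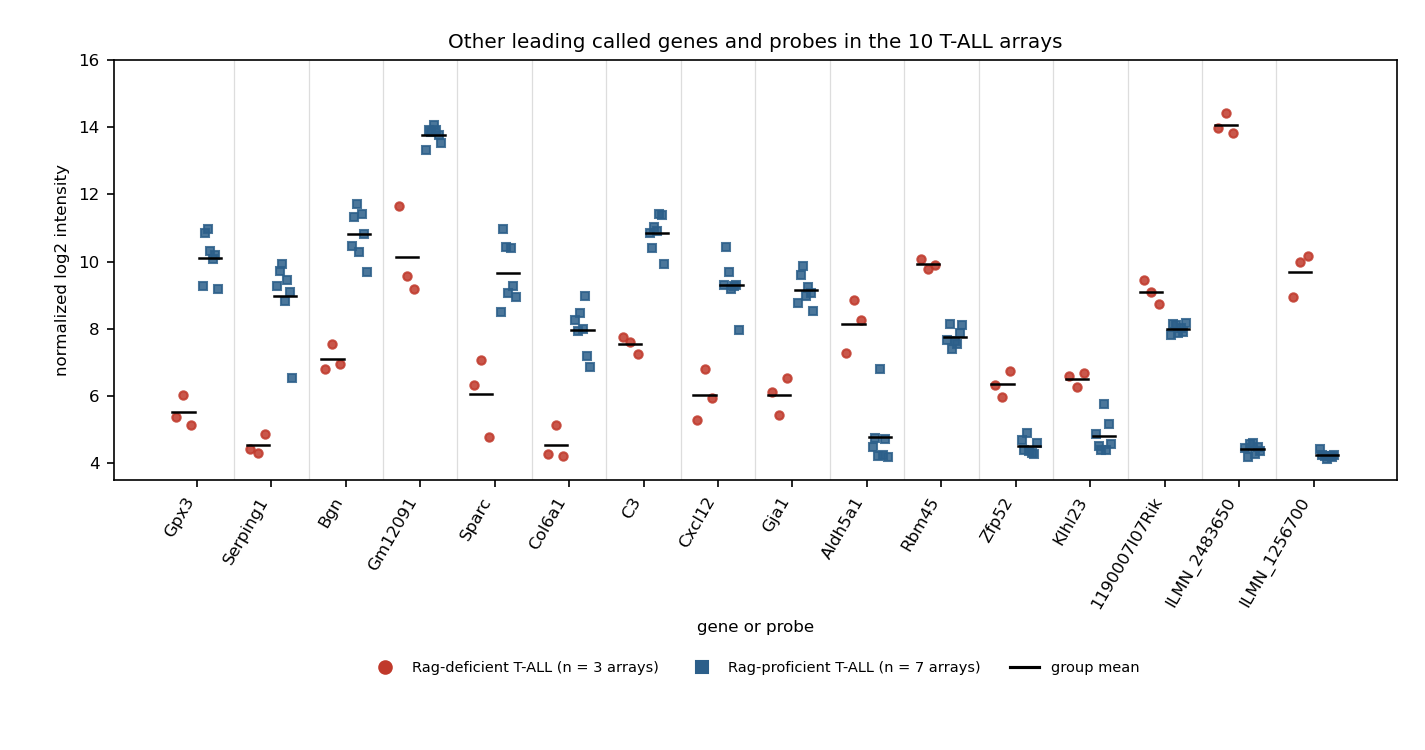
Normalized log2 intensity (vertical axis) of the other leading called genes and probes in each Rag-deficient (circles, n = 3) and Rag-proficient (squares, n = 7) array, with bars at the group means. The 9 genes from Gpx3 to Gja1 are lower and the 5 genes and 2 unnamed probes from Aldh5a1 to ILMN_1256700 higher in Rag-deficient arrays, without overlap. The low Serping1 point is Rag-proficient replicate 7 and the high Aldh5a1 point Rag-proficient replicate 4.

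Slide could be separated from Rag status only within slide 3, where the 3 Rag-deficient arrays stood beside 1 Rag-proficient array. The difference within that slide is also the one a fit with slide as a fixed block gives. Replicate 7 was among the arrays behind the calls, and no call overlapped between the groups. The sign within slide 3 was therefore fixed beforehand for all 95 probes and is no check of them. Within slide 3, 74 of the 79 lower probes and 15 of the 16 higher ones differed by at least 2-fold. The within-slide difference was -7.09 for Igk-C, -2.72 for Tcrg, -4.25 for Tcrg-V4, and -3.66 for Gpx3 on the log2 scale. That of Tcrg stood against -4.95 over all arrays. Rag-proficient replicate 7 was the lowest Rag-proficient array for 27 of the 79 lower probes (34.2%), against 17.8% of all probes tested.

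With slide as a fixed block, limma called 45 probes (0.196%), 21 lower (0.0915%) and 24 higher (0.105%), and 7 of them were among the 95. These were Timp3 (adjusted p = 0.00969), Sdc4 (0.0123), Gadd45gip1 (0.0186) and C3 (0.0478) on the lower side, and the unnamed ILMN_2483650, ILMN_1256700 and ILMN_2438041 on the higher side. Of the receptor genes, Igk-C had an adjusted p of 0.437, Tcrg of 0.224, Tcrg-V4 of 0.274 and Trdv2-2 of 0.279 in that fit. Bgn, Sparc, Col6a1, Cxcl12, Gja1, Gm12091, Gpx3 and Serping1 also lost their calls, with adjusted p-values from 0.0763 for Gpx3 to 0.454 for Sparc, as did Rbm45 (0.106), Zfp52 (0.131), Aldh5a1 (0.176), Klhl23 (0.224) and 1190007I07Rik (0.469). Among the calls made with the block and not without it was Tnfrsf25, a death receptor of T cells, named after its values were seen. It averaged 4.21 in the Rag-deficient arrays and read 9.94 in replicate 7, with an adjusted p of 0.00496 with the block and 0.647 without it. Xist, the RNA of the inactive X chromosome, read 4.88, 4.26 and 6.50 in Rag-deficient arrays and 10.71 in replicate 7 with the probe ILMN_2475156, against 4.21 to 6.99 in Rag-proficient replicates 1 to 6. Its part in the block calls was not tested.

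**Figure D4:**
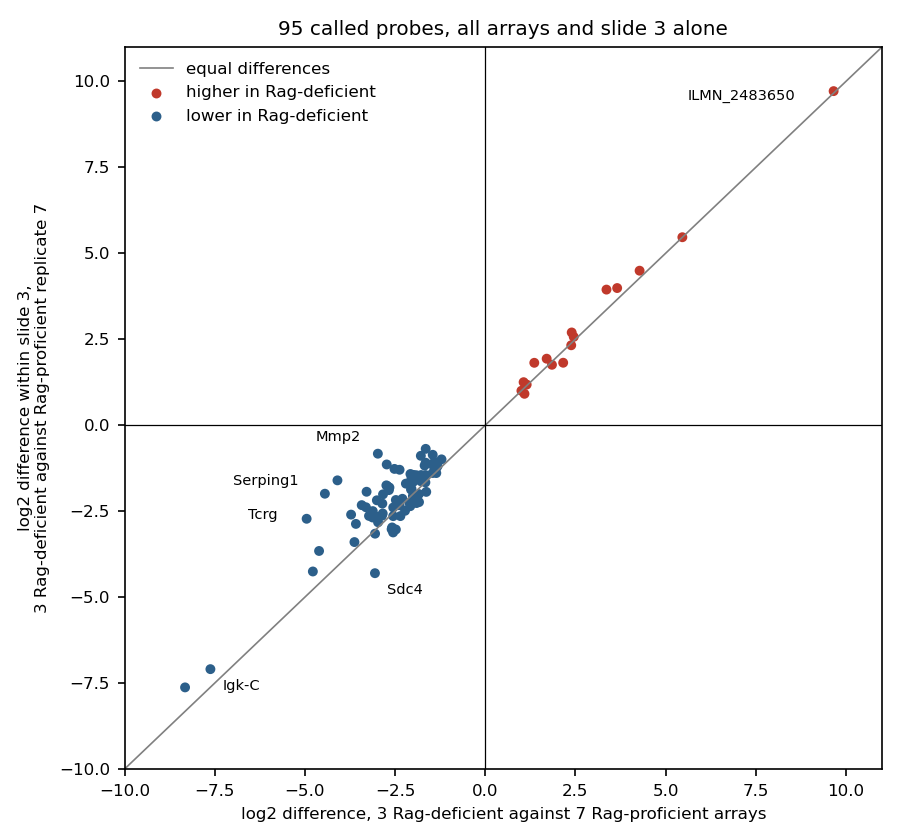
Log2 difference of the 95 called probes over all 10 arrays (horizontal axis) and within slide 3, 3 Rag-deficient arrays against Rag-proficient replicate 7 (vertical axis). The line marks equal differences. The sign within slide 3 was fixed beforehand, because no called probe overlaps between the groups. Tcrg, Serping1 and Mmp2 lie closer to 0 there.

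The T cell programme and the pathways of T-ALL showed no calls. Described with 1 probe per gene, 58 of 13000 genes were lower (0.446%) and 6 higher (0.0462%), 0.492% in all, with a median log2 difference of 0.027. In the list of T cell receptor and signalling genes 19 of 29 were kept and 0 were called, with a median of -0.04, and the 7 kept T cell markers had a median of -0.004. Cd3e, a signalling chain of the receptor complex, read 13.50, 13.32 and 13.80 in Rag-deficient arrays and 12.83, 13.33 and 13.95 (lowest, median, highest) in Rag-proficient arrays. Ptcra, the pre-T cell receptor alpha chain, read 9.10, 8.52 and 9.20 in Rag-deficient arrays and 8.29, 8.75 and 9.86 in Rag-proficient arrays. Both groups thus carried the markers of the labelled cell type.

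For the Notch pathway 15 of 19 genes were kept and 0 called, with a median log2 difference of 0.05. Notch1, the receptor, read 10.88, 11.98 and 11.90 in Rag-deficient arrays and 10.82, 11.73 and 12.29 in Rag-proficient arrays (lowest, median, highest). Dtx1, a target of Notch, read 12.17, 12.32 and 11.70 in Rag-deficient arrays and 11.40, 12.14 and 12.82 in Rag-proficient arrays. The target Il2ra, the alpha chain of the interleukin 2 receptor, was between 9.55 and 10.19 in Rag-deficient arrays and spread from 4.72 to 10.09 in Rag-proficient arrays (log2 difference 1.92 ± 0.88 SE, limma adjusted p = 0.511). The Notch target Hey1 was 5.42, 4.92 and 5.16 in Rag-deficient arrays and from 5.55 through 6.20 to 6.26 in Rag-proficient arrays, without overlap and without a call (log2 difference -0.84, limma adjusted p = 0.201).

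Genes of early progenitors had the lowest median of the pathway lists, -0.73, with 13 of 18 kept and 0 called. Cd44, an adhesion receptor of progenitors, read 7.26, 8.20 and 7.96 in Rag-deficient arrays and 8.70, 8.99 and 10.26 (lowest, median, highest) in Rag-proficient arrays, without overlap (log2 difference -1.43 ± 0.38 SE, limma adjusted p = 0.219). Gata2, a transcription factor of blood progenitors, was picked after its values were seen, for the smallest adjusted p of the list. It was detected on 0 of 3 Rag-deficient and on 6 of 7 Rag-proficient arrays (limma adjusted p = 0.196). Il7r, of the interleukin 7 receptor, overlapped, with a log2 difference of 0.08 ± 0.86 SE (limma adjusted p = 0.987). It read 8.85, 9.24 and 9.01 in Rag-deficient arrays and from 5.70 through 9.60 to 10.5 in Rag-proficient arrays. Log2 differences of the list ran from -1.43 to 0.21. Lmo2, a partner of the transcription factor Tal1 and a T-ALL oncogene, overlapped at 10.67, 9.11 and 10.00 in Rag-deficient arrays against 10.65, 10.79 and 11.56 in Rag-proficient arrays (limma adjusted p = 0.317). The interferon list lay at the other end, with a median of 0.55 over 8 of 12 genes kept and 0 called. Its members ranged widely between arrays, as Isg15 shows, at 12.31, 9.10 and 8.26 in Rag-deficient arrays and 7.57, 8.47 and 11.08 in Rag-proficient arrays. The remaining lists had 0 calls and medians of -0.30 for leukaemia genes (18 kept), 0.12 for cell cycle genes (15), 0.08 for p53 targets (9), 0.002 for T cell transcription factors (15), -0.35 for MHC genes (10) and -0.26 for homing genes (8).

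Markers of other blood cells gave 1 call. In the list of gamma delta T and NK cells, 6 of 12 genes were kept and Tcrg-V4 was the only call. Nkg7, a granule protein of cytotoxic cells, did not overlap, at 6.76, 6.06 and 6.91 in Rag-deficient arrays and 7.04, 7.66 and 9.50 (lowest, median, highest) in Rag-proficient arrays (log2 difference -1.47 ± 0.50 SE, limma adjusted p = 0.352). The summed intensity of that list was 413 to 593 in Rag-deficient arrays and 1627 to 10424 in Rag-proficient arrays, with Gzmb, Eomes and Ncr1 undetected on all 10 arrays. Tcrg-V4, the member with the highest mean level, is part of these sums, which therefore largely repeat its call. Sox13, Tbx21 and Il2rb overlapped between the groups, with log2 differences of -0.16, 0.11 and 0.02. Of the myeloid list, 9 of 10 were kept and 0 called, with a median of -0.52 and a summed intensity of 12435 to 24728 in Rag-deficient arrays and 6480 to 54401 in Rag-proficient arrays. The erythroid list had 4 of 5 kept and 0 called, with a median of -0.35, and Hbb-b1, a beta globin, was detected in every array, at 14.89, 14.98 and 14.97 in Rag-deficient arrays and from 14.87 to 15.10 in Rag-proficient arrays. Erythroid sums were 65655 to 70285 in Rag-deficient arrays and 68350 to 84101 in Rag-proficient arrays. The part of these cells in the calls was not tested.

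**Figure D5:**
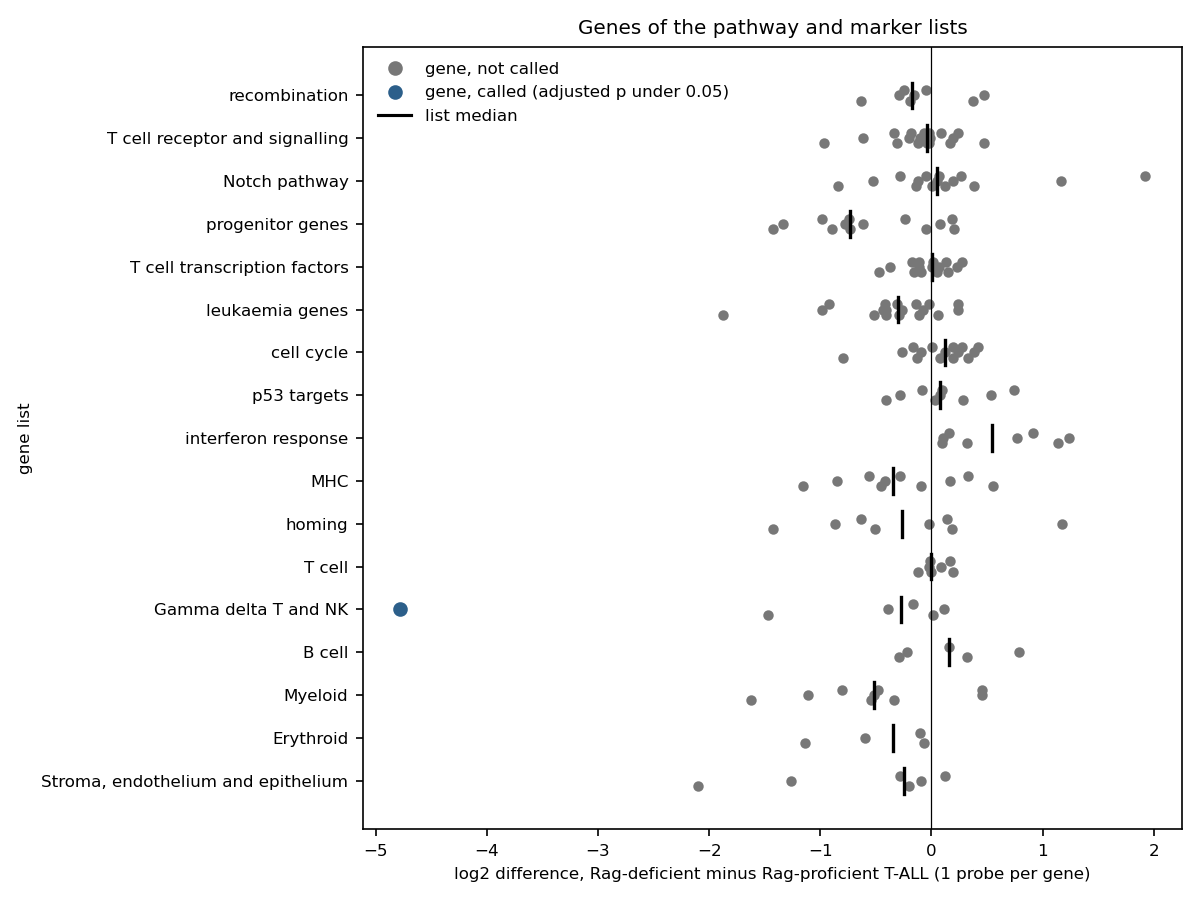
Log2 difference, Rag-deficient minus Rag-proficient T-ALL, of each gene kept from 11 pathway and 6 marker lists (rows), with 1 probe per gene and a bar at each list's median. Only Tcrg-V4, at -4.78 in the gamma delta T and NK list, passed limma at an adjusted p under 0.05.

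The called probes were then described in normal thymocytes, without a test and without account of the strain of the thymocytes. Of the 79 probes lower in Rag-deficient T-ALL, 21 (26.6%) were detected on 0 of the 16 thymocyte arrays, against 6.5% of all probes tested, and 5 (6.33%) on all 16, against 34.9% of all probes tested. Serping1, Bgn, Sparc, Col6a1 and Pf4, picked after their values were seen, averaged between 4.09 and 5.17 at every stage. Each was detected on at most 1 of the 16 arrays. Other lower genes were present in thymocytes. Gja1 was detected on 14 of the 16 arrays, with a mean of 9.35 in TN3b. Gm12091 and the Hsd11b1 probe ILMN_3115917 were detected on all 16, with means of 10.6 in TN2 and 11.02 in DP. Tcrg-V4 was high early and fell along the stages, with means of 13.13 in TN2, 13.24 in TN3a, 10.91 in TN4 and 5.65 in DP. Igk-C averaged 10.46 in ETP and between 4.21 and 4.95 at the other 6 stages. Of the 16 higher probes, 0 were undetected in all thymocyte arrays. ILMN_2483650 averaged 4.46 in ETP, 4.81 in TN2, 9.48 in TN3b and 10.63 in DP, and ILMN_1256700 4.48 in ETP, 9.30 in TN2 and 9.83 in ISP. Trdv2-2 averaged 4.64 in ETP and 7.99 in DP.

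Called genes with several probes were then described probe by probe. Of the 72 called genes, 32 had more than 1 probe above the detection filter, 79 probes in all, of which 42 were called. Each of the 32 genes entered through a called probe, so 42 of 79 overstates how often a further probe was called. In 25 of these genes all kept probes had the same direction, and in 7 all were called. Mylk, the myosin light chain kinase, was called with 3 of 3 probes, at -2.74, -2.71 and -2.37 on the log2 scale. App, the amyloid precursor protein, was called with both of its kept probes, at -1.78 and -1.41, and Ctse, the protease cathepsin E, at -2.10 and -1.97. Hsd11b1, which activates glucocorticoids, was called with 3 of its 4 kept probes, at -2.60, -2.55 and -2.48, and the remaining one stood at -0.72 (limma adjusted p = 0.612). Each Mylk call was lost without Rag-deficient replicate 1 or 2, those of ILMN_1219471 and ILMN_2662602 also without Rag-proficient replicate 2, 3, 5 or 6, and that of ILMN_1219471 also without Rag-proficient replicate 4 (adjusted p up to 0.233). Both App calls were lost without Rag-deficient replicate 1 or 2 (adjusted p up to 0.138) and the weaker Ctse call without Rag-deficient replicate 2 or 3 (up to 0.0996). The Hsd11b1 calls were lost without any 1 Rag-deficient array, and 1 of them also without Rag-proficient replicate 3 (up to 0.161). Gadd45gip1, Gse1, Mrvi1, Rusc2, Daam1, Hs6st2 and Timp3 each had a kept probe of the opposite sign. For Entpd4, a nucleotide-hydrolysing enzyme, 1 probe rose by 3.66 on the log2 scale (limma adjusted p = 0.00659) and the other kept one differed by 0.61 (limma adjusted p = 0.636).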

How the data were processed

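Total RNA of mouse T-ALL was measured on Illumina bead arrays, 1 array a sample. The authors deposited probe intensity on a linear scale with a detection p-value beside each, per the file headers, and a table of log2 values whose making is not stated. In the T-ALL table the deposited detection p-values are 2-sided: at least 99.7% of each array's dimmest 5% of probes had a p under 0.01. They were made one-sided around each array's background, the median intensity of probes with p above 0.95. Background was corrected with normexp from these p-values (offset 16), followed by log2 and quantile normalization over the 10 arrays, in R 4.3.3 with limma 3.58.1 and statmod 1.5.0. Probes detected (p under 0.01) on at least 3 arrays entered limma (lmFit, eBayes, 1 mean per group, 8 residual degrees of freedom, Benjamini-Hochberg adjustment over all 22951). The values are intensities, and no reads, builds or coordinates were used. The fit was tested on simulated arrays of 22951 probes and, of 40 changed by -3, -2 and -1 on the log2 scale each, recovered 95%, 75% and 27.5%.

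Of 46089 probes, 35667 had 1 gene symbol in the platform annotation and 10422 none, and 0 had several. Symbols were updated through RefSeq (GRCm38.p6) by gene ID, accession or symbol (937 changed). A gene was represented by its probe with the highest mean level. Named were up to 12 genes and 2 unnamed probes in each direction by log2 difference among calls of at least 2-fold without overlap, Rag1, Rag2, called list members and up to 4 others per list, and any other gene was picked after its values were seen. The groups, gene lists and named genes were chosen with earlier results of these data known. A fold for a group with 0 detected arrays is a bound: the brighter group's mean is set against the dimmest detected level of each array, or the probe itself where that is brighter. Stage means came from all 26 arrays normalized together. Alternatives were no background correction, median scaling, the deposited log2 values, other filters, slide as a block or slide 3 alone, other eBayes settings and leaving out each array.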

Additional observations from a re-analysis of the deposited data

Results flagged for a closer look

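Within the 7 Rag-proficient arrays, 13 of the 160 probes examined had 1 array set apart from its nearest neighbour by more, relative to the group's range, than the 95% limit of Dixon's test for 7 values. Chance gives about 1 in 20 groups such a gap.

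Rag-proficient replicate 7 was the lowest array for both Serping1 probes, at 6.52 against 8.82 for the next array and 6.12 against 8.55, for Plvap, a protein of endothelial diaphragms, at 7.79 against 8.94, and for the Notch target Nrarp, at 5.62 against 10.23. It was the highest for Rag1, at 12.14 against 10.67.

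Rag-proficient replicate 1 was the lowest for the tight junction gene Cldn5, at 5.88 against 7.24, and for Gnaz, a G protein alpha subunit, at 6.00 against 6.81. It was the highest for Entpd4, at 6.63 against 4.20, and for the unnamed ILMN_1230858, at 4.91 against 4.33, and ILMN_1256700, at 4.42 against 4.25.

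Rag-proficient replicate 3 was the highest for Rbpms2, at 6.30 against 5.84, replicate 4 the highest for Aldh5a1, at 6.79 against 4.75, and replicate 6 the lowest for the purine receptor gene P2ry1, at 5.48 against 5.91. All of these but Rag1 and Nrarp were called between the groups, and none of the arrays named here overlapped the Rag-deficient arrays for the called ones.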

How the results depend on the processing

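The direction of all 95 calls was kept under every setting that tested them, and the number of calls was not. Since no call overlapped between the groups, leaving out an array, slide 3 alone or slide as a fixed block could hardly reverse a direction. The kept direction is no check in those settings. Against 95 calls in all and 22 among the items named by rule, the calls in all and among those items were 25 and 10 without background correction, 23 and 10 in the authors' deposited log2 values, 45 and 3 with slide as a fixed block, 18 and 3 within slide 3 alone, and 40 and 10 among probes detected on all 10 arrays, where 41 of the 95 were tested. Of the 95, 24, 21, 7, 3 and 40 were among those calls, in the same order of settings. Without a filter 52 probes were called, and with slide as a random block 159 (estimated correlation -0.078), the 95 among them. Within slide 3 alone, Igk-C, ILMN_2704562 and ILMN_2483650 remained of the 95. Median scaling (94), eBayes with trend and robust (103), 1 probe per gene (76) and 26 arrays normalized together (87), the last 2 chosen after seeing the data, stayed within 1.5 times. Leaving out each array gave 31 to 142 calls, 47, 31 and 142 without Rag-deficient replicates 1, 2 and 3 and 69 to 118 without a Rag-proficient array, and 13 to 22 of the named items. Of the 95, 27 were kept without any 1 array and 64 were lost without some array. The other 4, detected on no Rag-proficient array, could not be tested without a Rag-deficient array. The difference in detected probes ran from -0.644 to -0.0159 percentage points when each array was left out. No paired analysis was possible because the labels give no replicate numbers that tie arrays of the 2 groups. At this number of arrays the simulation recovered 27.5% of falls of 1 log2 unit. Its values had no floor, slide or strain, so that this rate need not hold for the real arrays, where smaller differences may be missed. Folds of probes near background rest on the normexp offset. The cause of these changes was not tested.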
